A study of Mus musculus with 12 samples.

Results

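The platelet-derived growth factor (PDGF) genes examined here are the 4 ligand genes Pdgfa, Pdgfb, Pdgfc and Pdgfd and the 2 receptor genes Pdgfra and Pdgfrb. They were taken from the expression table by symbol, and all 6 were found among its 24346 genes. RNA had been sequenced from 12 libraries of cultured mouse fibroblasts, 3 in each of 4 groups. NIH-3T3 is a fibroblast line from embryos of NIH/Swiss mice, and MLg is a fibroblast line from the lung of newborn ddY mice. Cells at 85% confluence received SHHN, a recombinant fragment of the Hedgehog ligand Sonic hedgehog, at 1 µg/ml, or vehicle (control), for 48 h in medium with 0.5% serum, so all groups share the change to low serum. Each line is a single established line, and whether the replicates were separate cultures is not stated, so p-values measure only the spread between these libraries. The authors deposited FPKM, which divides a gene's fragments by the length of its transcripts and by the library's mapped fragments.

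PDGFs are secreted growth factors that act as dimers on a pair of receptor tyrosine kinases. PDGF-A and PDGF-C chains act through the alpha receptor, PDGF-B through both receptors, and PDGF-D mainly through the beta receptor. PDGF-C and PDGF-D are secreted in a latent form that proteases open. PDGF is a classical mitogen of 3T3 cells, and in the lung Pdgfra marks mesenchymal cells that give rise to alveolar myofibroblasts, while Pdgfrb is best known from pericytes.

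In GRCm38, the assembly also called mm10, Pdgfa lies on chromosome 5 at 138976014 to 138997370 (minus strand) and Pdgfra on the same chromosome at 75152292 to 75198215 (plus strand). Pdgfc lies on chromosome 3 at 81036416 to 81214040 (plus), Pdgfb on chromosome 15 at 79995874 to 80014977 (minus) and Pdgfd on chromosome 9 at 6168584 to 6378850 (plus), all per GENCODE M21. Exons of Pdgfa, Pdgfc and Pdgfra overlap exons of unnamed genes on the opposite strand. The strand setting of the authors' quantification is not given in the sources used here, so reads of such partners could not be told apart from those of the PDGF genes.

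Promoter sequence is shown for the 3 members whose calls held in both lines under every alternative tried, Pdgfa and Pdgfc, which rose, and Pdgfra, which fell. The bases lie before the RefSeq start site and outside annotated exons of the gene (GRCm38.p6), and capitals mark CG dinucleotides. For Pdgfa the stretch lies inside the span of the gene in GENCODE M21, whose upstream end on the minus strand is 138997370. Only 157 of its 250 bases are shown, up to the first annotated exon base. The positions are chr5:138995038-138995194 (minus strand) for Pdgfa, chr3:81036166-81036415 (plus) for Pdgfc and chr5:75152001-75152250 (plus) for Pdgfra.
Pdgfa: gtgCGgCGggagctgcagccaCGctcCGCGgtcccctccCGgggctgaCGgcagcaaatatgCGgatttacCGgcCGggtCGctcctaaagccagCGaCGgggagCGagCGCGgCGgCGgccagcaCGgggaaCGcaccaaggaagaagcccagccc
Pdgfc: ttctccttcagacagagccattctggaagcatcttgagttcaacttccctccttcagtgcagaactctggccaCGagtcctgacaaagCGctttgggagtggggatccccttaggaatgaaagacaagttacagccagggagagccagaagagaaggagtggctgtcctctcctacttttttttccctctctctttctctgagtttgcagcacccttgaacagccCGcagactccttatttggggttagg
Pdgfra: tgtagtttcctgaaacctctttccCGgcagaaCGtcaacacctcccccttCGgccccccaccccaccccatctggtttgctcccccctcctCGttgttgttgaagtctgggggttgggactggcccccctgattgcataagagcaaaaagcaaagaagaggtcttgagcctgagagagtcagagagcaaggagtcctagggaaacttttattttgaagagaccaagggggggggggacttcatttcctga
In the 250 bases before this start site Pdgfa held 28 CG dinucleotides, more than 92.4% of 32851 promoter entries of RefSeq, whose median was 6. The window of a second Pdgfa start site held 19, more than 80.3% of entries. Pdgfc held 3 and Pdgfra 4, so the genes that rose together did not share this feature. The letters GACCACCCA, the consensus bound by Gli factors, were on neither strand of any of the 5 windows found for 4 members, and 0.225% of all windows of this length held them. The GC box GGGCGG, searched on both strands, was in both Pdgfa windows, outside the bases shown here, and in 32.7% of all windows. A match or its lack describes only these letters in this window.

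The Hedgehog target Gli1 was at most 0.906 FPKM in control libraries and at least 113 FPKM in treated ones, and it rose in both lines. Fibroblast markers were high in all groups, although Thy1 was near 0 in MLg (0.0701 FPKM in control) and Fap in NIH-3T3. The 7 epithelial markers summed to at most 0.704 FPKM in any library and the 7 haematopoietic markers to at most 1.74 FPKM. Of 10 pericyte and smooth muscle markers, 5 were tested. The pericyte genes Rgs5, Kcnj8 and Abcc9 averaged at most 0.224 FPKM in any group. Other members of the list were expressed, Cspg4 among them. The highest member averaged 104 FPKM in NIH-3T3 control and 315 FPKM in MLg control. Libraries of a group correlated across genes at Spearman 0.973 to 0.995 and libraries of unlike groups at 0.841 to 0.958, where genes are not independent replicates. Read counts were not used and depth is unknown.

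Pdgfa, the chain of PDGF-AA and a ligand of the alpha receptor, rose about equally in both lines. In NIH-3T3 control it stood at 5.39, 7.57 and 5.54 FPKM, and with SHHN at 27.9, 19.1 and 25.7 FPKM. In MLg control it stood at 11.3, 13.7 and 8.37 FPKM, and with SHHN at 38.3, 41.9 and 43.7 FPKM. Every treated library of a line was above every control library of that line. The log2 fold change was 1.89 (SE 0.19, adjusted p = 3.91e-06, 3.71-fold) in NIH-3T3 and 1.87 (SE 0.19, adjusted p = 6.33e-06, 3.65-fold) in MLg, on the scale of log2(FPKM + 0.5). The difference between the lines' effects was 0.02, with a 95% interval from −0.55 to 0.59.

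Pdgfc, whose latent product also acts on the alpha receptor once it is opened, showed the highest fold change of the ligands in MLg. Its values were 5.80, 5.92 and 7.32 FPKM in NIH-3T3 control and 32.9, 26.6 and 23.8 FPKM with SHHN. MLg control had 4.20, 4.63 and 3.94 FPKM, and MLg with SHHN 19.5, 25.8 and 21.5 FPKM. Control and treated libraries were far apart in both lines, and the treated ranges of the lines overlapped. The log2 fold change was 2.04 (SE 0.15, adjusted p = 2.14e-07, 4.11-fold) in NIH-3T3 and 2.25 (SE 0.15, adjusted p = 2.09e-07, 4.76-fold) in MLg. The effects differed by −0.21 between the lines (95% interval −0.67 to 0.24, adjusted p = 0.551).

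Pdgfb, the chain that binds both receptors, was low and rose unevenly. NIH-3T3 control libraries had 0.0127, 0 and 0.0199 FPKM, and the treated libraries 5.42, 0.789 and 0.797 FPKM. The first treated library thus stood far above the others of its group. That library also held more Egr1, an early growth response factor, at 54.9 FPKM against 19.4 and 18.6, and more Fos, at 3.53 FPKM against 0.726 and 0.454. The part of this library in the Pdgfb result is measured directly: the log2 fold change in NIH-3T3 was 2.07 (SE 0.44, adjusted p = 0.00251) with it and 1.34 (adjusted p = 2.65e-04) without it. Since control values lie far below the pseudocount, the size also moved with that choice, from 1.44 with a pseudocount of 1 to 3.89 with 0.1.

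In MLg, Pdgfb was already present without SHHN, at 1.09, 2.17 and 1.80 FPKM, and reached 6.07, 5.57 and 5.22 FPKM with it. The 2 groups did not overlap. The log2 fold change was 1.51 (SE 0.44, adjusted p = 0.0226). Leaving out MLg control replicate 1 (0.0916) or MLg SHHN replicate 1 (0.0702), 2 (0.0552) or 3 (0.0566) ended the call, as did testing all genes without a filter (0.13). Without NIH-3T3 SHHN replicate 1, whose spread enters the same fit, the MLg fold change was again 1.51, with an SE of 0.18 and an adjusted p of 4.15e-05.

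Pdgfd, the ligand that acts mainly on the beta receptor, separated the lines. It was listed at 0 in all 6 NIH-3T3 libraries, so no fold is given there. MLg control had 0.513, 0.502 and 0.542 FPKM and MLg with SHHN 1.25, 0.749 and 0.856 FPKM. Pdgfd passed the filter on low values through MLg alone, and its levels there were the lowest of the 6 genes. The log2 fold change in MLg was 0.49 (SE 0.15, adjusted p = 0.0271). With replicate numbers as a block, the adjusted p was 0.0552, though whether the numbers pair the libraries is not known. The call also ended without MLg control replicate 1 (0.0594), 2 (0.0756) or 3 (0.0525), without MLg SHHN replicate 1 (0.14) or 3 (0.0547) and with a pseudocount of 0.1 (0.0682).

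Pdgfra, the alpha receptor, was the most abundant PDGF gene in NIH-3T3 and in MLg control, and it fell in both lines. NIH-3T3 control libraries had 457, 311 and 430 FPKM and treated libraries 186, 267 and 218 FPKM. MLg control libraries had 204, 181 and 205 FPKM and treated libraries 86.5, 80.0 and 75.7 FPKM. Groups did not overlap within a line, although NIH-3T3 with SHHN overlapped with MLg control. The log2 fold change was −0.83 (SE 0.16, adjusted p = 0.00121, 1.78-fold lower) in NIH-3T3 and −1.28 (SE 0.16, adjusted p = 4.11e-05, 2.43-fold lower) in MLg. The difference of 0.45 between the lines did not pass the threshold (95% interval −0.04 to 0.93, adjusted p = 0.216). Summed fibroblast markers moved too, from 16326 to 17639 FPKM in NIH-3T3 control libraries to between 10744 and 12402 FPKM with SHHN (1 of 10 higher and 6 lower). In MLg they went from 9821 to 11545 to between 8883 and 10195 FPKM (1 higher and 1 lower). Among all tested genes 16.6% were higher and 14.8% lower in NIH-3T3, and 12.8% and 10.0% in MLg. The MLg marker counts are close to those shares. The part of the fibroblast markers in the fall of the receptors was not tested. In bulk RNA a fall can come from fewer cells that express the gene or from less RNA per cell, and these cannot be told apart.

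Pdgfrb, the beta receptor (chromosome 18 at 61045150 to 61085061, plus strand, GENCODE M21), had a smaller mean fall than Pdgfra in each line. The fold changes of the 2 genes were not tested against each other. Their relative level was tested as the share of Pdgfra in the receptor sum. The exact permutation p was 0.4 in NIH-3T3, where the groups overlapped, and 0.1, the smallest possible, in MLg. For Pdgfrb, NIH-3T3 control libraries had 71.2, 59.6 and 59.8 FPKM, and treated libraries 44.6, 46.5 and 37.2 FPKM. In MLg the values were 108, 101 and 104 FPKM in control and 92.2, 77.1 and 71.5 FPKM with SHHN. The treated libraries lay below the controls in both lines. The log2 fold change was −0.57 in NIH-3T3 (SE 0.12, adjusted p = 0.00334, 1.48-fold lower) and −0.38 in MLg (SE 0.12, adjusted p = 0.0409, 1.30-fold lower), with a difference of −0.18 (95% interval −0.56 to 0.20, adjusted p = 0.534). The MLg call ended without MLg control replicate 1 (0.113), 2 (0.0811) or 3 (0.0791), without MLg SHHN replicate 2 (0.122) or 3 (0.181), with quantile normalization (0.108), with no filter (0.0832) and with no variance trend (0.0562), while the NIH-3T3 call held in all 22 alternatives.

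**Figure D1:**
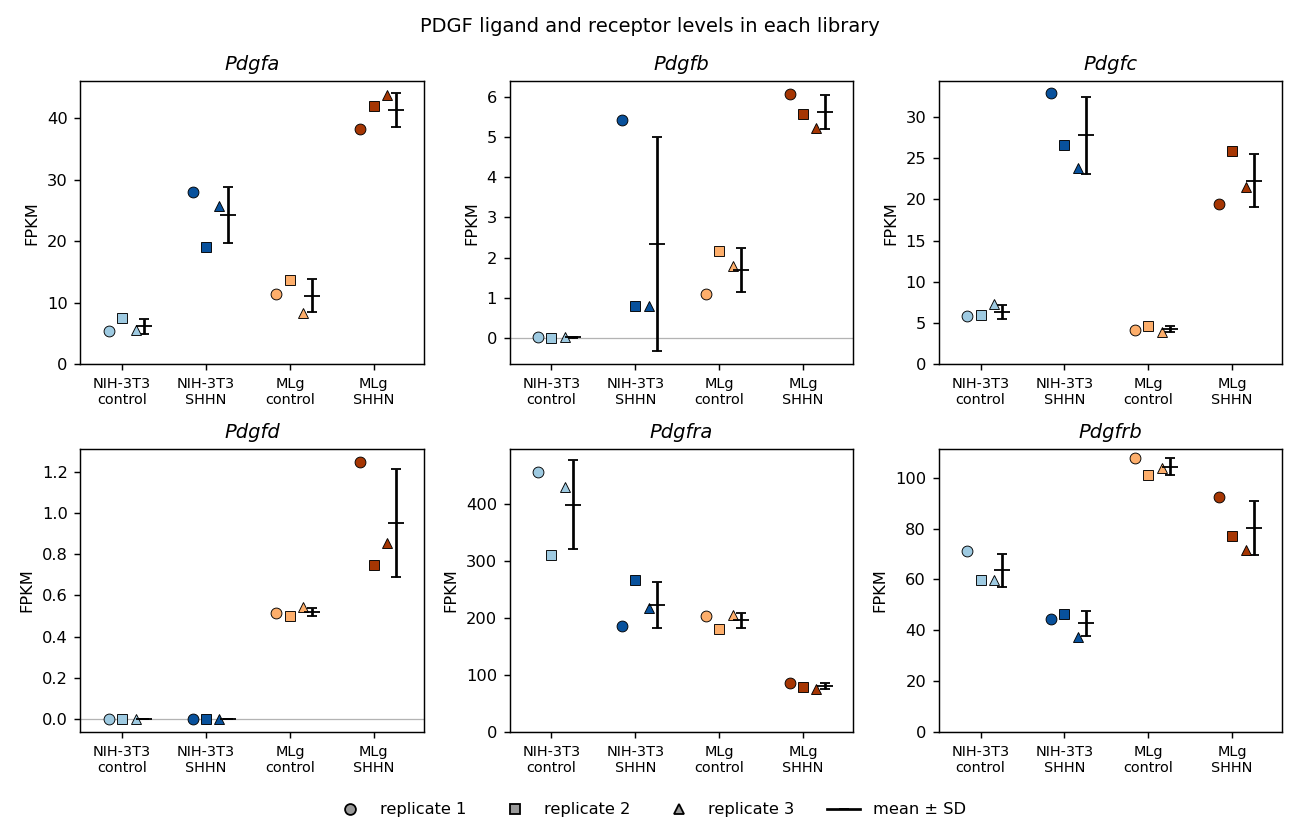
FPKM of the 6 PDGF genes in each of the 12 libraries, 1 panel per gene, with linear axes that include 0; markers are replicates 1 to 3 and black bars the mean ± SD of a group. Ligand values are higher and receptor values lower with SHHN in each line, Pdgfd is at 0 in NIH-3T3, and 1 treated NIH-3T3 library reaches 5.42 FPKM of Pdgfb while the others stay below 0.8 FPKM.

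Counted together, 5 of the 6 genes were called in NIH-3T3, 3 higher and 2 lower, where limma called 31.4% of the 12379 tested genes (16.6% higher and 14.8% lower). In MLg all 6 were called, 4 higher and 2 lower, where 22.8% of tested genes were called (12.8% higher and 10.0% lower). The ranges of control and treated libraries did not overlap for 5 genes in NIH-3T3 and 6 in MLg, against 40.4% and 41.4% of all tested genes (21.6% higher and 18.8% lower in NIH-3T3, 21.4% higher and 20.0% lower in MLg). Calls for Pdgfa, Pdgfc and Pdgfra held in both lines in all 22 alternatives, whereas those for Pdgfb, Pdgfd and Pdgfrb in MLg did not. Without NIH-3T3 SHHN replicate 1 the same 5 genes were still called in NIH-3T3. None of the 5 genes present in both lines had a different effect in the lines by the test of the difference, where 13.4% of tested genes were called (7.48% higher and 5.95% lower), but the intervals do not exclude differences. For Pdgfb the difference was 0.56 with a 95% interval from −0.77 to 1.89, and it was 2.16 (adjusted p = 0.0852) with a pseudocount of 0.1.

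**Figure D2:**
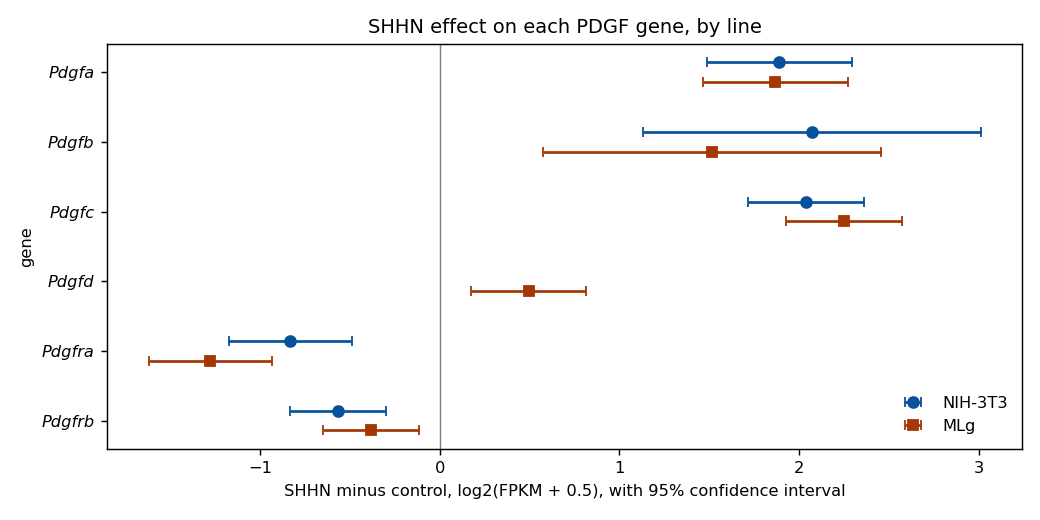
Fold change of each PDGF gene with SHHN (horizontal axis, log2(FPKM + 0.5), SHHN minus control) with its 95% confidence interval, circles for NIH-3T3 and squares for MLg. Ligands lie right of 0 and receptors left of it in both lines, Pdgfb has the widest intervals, and Pdgfd is drawn for MLg only because it was listed at 0 in NIH-3T3.

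The balance of ligand to receptor RNA shifted with these changes. The 4 ligands summed to 12.5 ± 1.18 FPKM in NIH-3T3 control and 54.3 ± 10.5 FPKM with SHHN (SD, n = 3). In MLg the sum went from 17.6 ± 3.21 to 70.1 ± 4.59 FPKM. The receptors summed to 463 ± 82.5 FPKM in NIH-3T3 control and 266 ± 42.3 FPKM with SHHN, and in MLg to 301 ± 16.1 and 161 ± 16.2 FPKM. Receptor RNA remained above ligand RNA in every library. FPKM is per transcript length, so these sums may be set side by side, but they say nothing of protein.

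Pdgfa and Pdgfc made up nearly all ligand RNA. In NIH-3T3 control Pdgfa held 49.1% and Pdgfc 50.8% of the ligand sum on average, and with SHHN 44.8% and 51.4%. Pdgfb held 8.18% of the ligand sum in the treated NIH-3T3 library with high Egr1 and 1.70% and 1.58% in the others. MLg leaned to Pdgfa, with 62.8% in control and 58.9% with SHHN, and Pdgfc held 24.5% and 31.6%. Pdgfb contributed 9.65% and 8.06% there and Pdgfd 3.03% and 1.38%.

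The mix of receptors changed in MLg. Pdgfra made up 65.4%, 64.2% and 66.4% of the summed receptor FPKM in MLg control libraries and 48.4%, 50.9% and 51.4% with SHHN. The mean share was thus 15.1 percentage points lower, from 65.3% ± 1.07 to 50.3% ± 1.62 (SD, n = 3), and the groups did not overlap. An exact two-sided permutation test gave p = 0.1, the smallest that 3 against 3 libraries allow. In NIH-3T3 the share was 86.5%, 83.9% and 87.8% in control and 80.7%, 85.1% and 85.4% with SHHN. These groups overlapped (exact permutation p = 0.4). In MLg with SHHN the levels of Pdgfra and Pdgfrb, 80.7 ± 5.46 and 80.3 ± 10.7 FPKM, lay within their spread of each other.

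**Figure D3:**
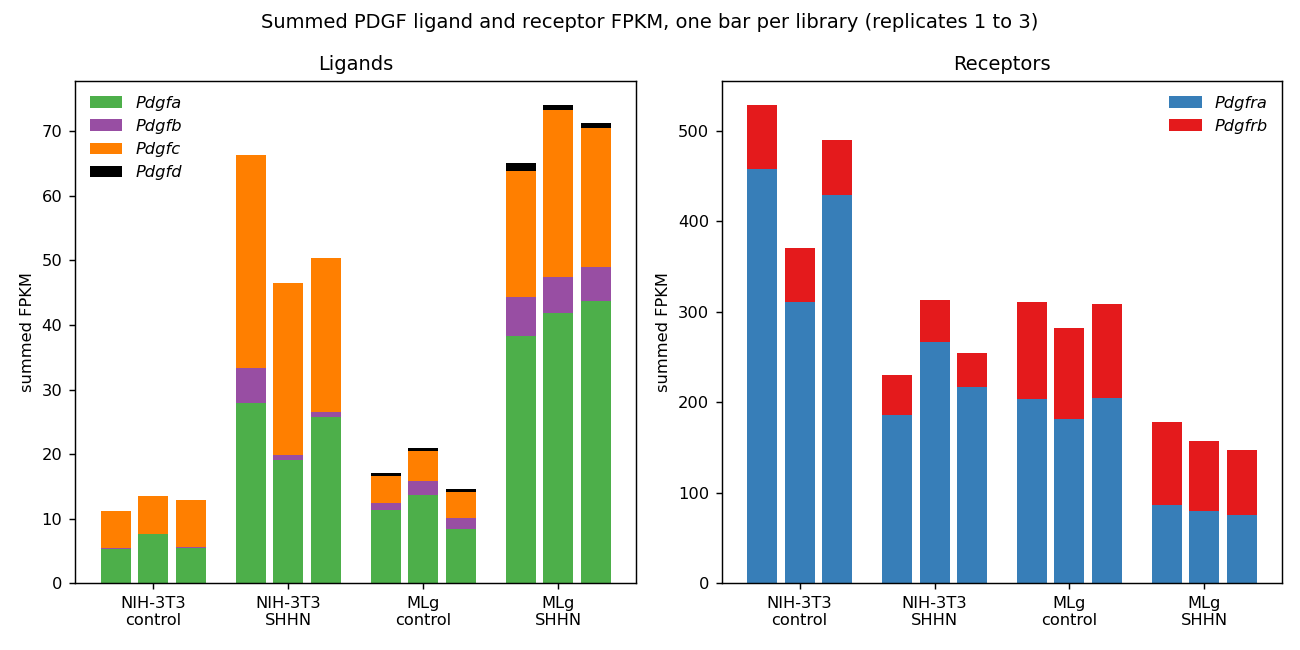
Summed FPKM of the 4 ligands (left) and the 2 receptors (right), 1 bar per library and replicates 1 to 3 from left to right in each group, divided by gene. With SHHN ligand bars reach 46.5 to 74.0 FPKM, above every control bar, and receptor bars are lower than those of the same line's controls.

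Without SHHN the lines differed in all PDGF genes other than Pdgfd, which is listed at 0 in NIH-3T3, passed the filter through MLg alone and is therefore not counted, where 50.1% of tested genes were called (24.4% higher and 25.7% lower in NIH-3T3). The ranges of the lines did not overlap for these 5 genes, against 52.3% of all tested genes (25.2% higher and 27.0% lower). NIH-3T3 control had more Pdgfra than MLg control, 399 ± 77.9 against 197 ± 13.3 FPKM (SD, n = 3), a log2 difference of 1.00 (SE 0.16, adjusted p = 1.36e-04). It had less Pdgfrb, 63.5 ± 6.63 against 104 ± 3.37 FPKM (−0.71, SE 0.12, adjusted p = 3.11e-04). Among ligands, NIH-3T3 control had less Pdgfa (−0.79, SE 0.19, adjusted p = 0.00308) and more Pdgfc (0.52, SE 0.15, adjusted p = 0.0104). The lines thus stood on opposite sides for each pair of receptors and of main ligands. Pdgfb was lower in NIH-3T3 control (−2.07, adjusted p = 0.00139), with values near 0 there.

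With SHHN the order of the lines stayed similar, where 46.8% of tested genes were called (22.1% higher and 24.8% lower in NIH-3T3). Ranges did not overlap for Pdgfa, Pdgfra and Pdgfrb, against 61.4% of all tested genes (28.6% higher and 32.7% lower). NIH-3T3 had more Pdgfra (log2 difference 1.45, SE 0.16, adjusted p = 5.19e-06) and less Pdgfrb (−0.90, SE 0.12, adjusted p = 4.96e-05) and Pdgfa (−0.77, SE 0.19, adjusted p = 0.00410). Pdgfc no longer passed the test (0.31, SE 0.15, adjusted p = 0.108, 95% interval −0.01 to 0.63). Pdgfb was lower in NIH-3T3 (−1.51, SE 0.44, adjusted p = 0.0118), yet the ranges overlapped through NIH-3T3 SHHN replicate 1, and the adjusted p was 0.0632 when NIH-3T3 SHHN replicate 2 was left out, 0.0602 for replicate 3 and 0.0763 with no filter. By mean FPKM, Pdgfa was ordered MLg SHHN, NIH-3T3 SHHN, MLg control and NIH-3T3 control with no overlap between neighbours, while for Pdgfc the top groups, both with SHHN, overlapped. Pdgfrb was ordered MLg control, MLg SHHN, NIH-3T3 control and NIH-3T3 SHHN. The ranges of MLg SHHN and NIH-3T3 control were close but did not overlap, with a lowest value of 71.5 against a highest of 71.2 FPKM.

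The genes most like each member were sought by Pearson correlation of log2(FPKM + 0.5) across the 12 libraries, among 10734 named genes with a mean of at least 1 FPKM. These values describe the libraries, which fall into 4 groups, and carry no test. Pdgfa was closest to Fen1 (r = 0.984), Igfbp7 (0.984) and Pkdcc (0.982), and Pdgfc to Fam65b (0.993), Plk3 (0.984) and Fkbp5 (0.984). For Pdgfb high likeness was found for Egr1 (0.971) and Fmnl3 (0.940), and for Pdgfd they were Trp53i11 (0.992), Sema6d (0.990) and Bmp3 (0.989). Pdgfra was closest to Pxdn (0.986), Sh3d19 (0.979) and Srgap3 (0.977), and Pdgfrb to Ninl, Dpysl3 and Vps11 (0.972 each).

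Proliferation genes moved with the same treatment. All 14 genes of a proliferation list rose in both lines, where 16.6% of all tested genes were higher in NIH-3T3 and 12.8% in MLg. Among the 14 were the replication factor Mcm5 (2.75 and 2.36 in NIH-3T3 and MLg) and the mitotic kinase Aurkb (3.12 and 2.35). The summed level of the 14 genes went from 136 to 164 FPKM in NIH-3T3 control libraries to 651 to 730 FPKM with SHHN. In MLg it went from 196 to 266 to between 983 and 1147 FPKM. Their part in the PDGF results was not tested. Endothelial markers summed to 5.75 to 7.94 FPKM in NIH-3T3 control and 6.73 to 25.3 FPKM with SHHN, and to at most 0.447 and 7.01 FPKM in MLg. Of the 7 endothelial markers, 2 were tested, with 1 higher and none lower in NIH-3T3 and 2 higher in MLg. The counts include Cdh5 in both lines. Since Cdh5 passed the filter through treated libraries, these counts are a description and not a result about the list. Over all tested genes, 16.6% and 12.8% were higher in these lines. The highest of the 7 markers averaged 6.86 FPKM in NIH-3T3 control. Cdh5, which passed the filter through the treated libraries, where it is high, had log2 fold changes of 3.72 in NIH-3T3 and 3.43 in MLg. Kdr, Tie1 and Emcn stayed at most 0.0165 FPKM in any group mean. The tested pericyte and smooth muscle markers were 1 higher and 1 lower of 5 in NIH-3T3 (median −0.23) and 1 higher and none lower in MLg (median −0.10). Among all tested genes 16.6% were higher and 14.8% lower in NIH-3T3, and 12.8% and 10.0% in MLg. The list of pericyte and smooth muscle markers summed to between 142 and 175 FPKM in NIH-3T3 control libraries and 99.3 and 198 FPKM with SHHN. In MLg it summed to between 410 and 532 and 388 and 425 FPKM. Tagln, a smooth muscle gene, fell in NIH-3T3 from a mean of 33.2 to 9.56 FPKM, and Acta2 had −0.45 and −0.10 in the lines without a call. The one marker that rose, Cspg4, a proteoglycan that binds PDGF-A, was higher in both lines, with means of 16.1 and 44.1 FPKM in NIH-3T3 (1.38, SE 0.21) and 2.13 and 13.8 FPKM in MLg (2.43, SE 0.21).

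The proteases Plat and Plau, which open the latent ligands, fell in both lines. Plat, the tissue plasminogen activator that opens PDGF-C, averaged 51.7 FPKM in NIH-3T3 control and 23.8 FPKM with SHHN (log2 fold change −1.13, SE 0.15), and 81.2 and 39.9 FPKM in MLg (−1.02, SE 0.15). Plau, the urokinase that opens PDGF-D, had means of 17.3 and 4.41 FPKM in NIH-3T3 (−1.86, SE 0.18) and of 63.4 and 21.9 FPKM in MLg (−1.47, SE 0.18). Furin, a proprotein convertase that cleaves the PDGF-A and PDGF-B precursors, rose in NIH-3T3 (0.80, SE 0.15, adjusted p = 0.00115) and had 0.25 in MLg (adjusted p = 0.287). Nrp1, a co-receptor that binds several growth factors, rose in both lines, with means of 50.9 and 164 FPKM in NIH-3T3 (1.71, SE 0.19) and 71.9 and 127 FPKM in MLg (0.85, SE 0.19).

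Of the 15 genes of the list of activation, binding and co-receptors, 11 were tested. In NIH-3T3, 2 were higher and 3 lower, with a median log2 fold change of −0.05, and in MLg 1 was higher and 6 lower, with a median of −0.53, beside medians of −0.01 and −0.0026 and called shares of 31.4% and 22.8% over all tested genes. Pcsk6, a proprotein convertase, fell in MLg (−1.16, SE 0.23) and was near 0 in NIH-3T3. Pdgfrl, a secreted protein that resembles the outer part of the beta receptor, fell in MLg from 49.4 ± 7.27 to 25.7 ± 1.69 FPKM (−0.92, SE 0.20, adjusted p = 0.00445). In NIH-3T3 it had 39.7 ± 8.69 and 51.1 ± 14.7 FPKM (0.34, SE 0.20, adjusted p = 0.235).

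Genes that carry the signal inside the cell were called in NIH-3T3 at close to the shares of all tested genes, and below those shares in MLg. Of 36 tested genes of receptor signal transduction, 7 were higher and 7 lower in NIH-3T3 (16.6% and 14.8% of all tested genes), and 1 higher and 1 lower in MLg (12.8% and 10.0% of all), with medians of 0.02 and 0.01. The docking protein Gab1 rose in both lines (1.49 and 1.26, SE 0.12 each), from 7.90 to 23.3 FPKM in NIH-3T3 and from 11.7 to 28.8 FPKM in MLg. Stat3, a transcription factor that receptor kinases can activate, fell in NIH-3T3 (−0.94, SE 0.14), as did the kinase Prkca (−0.83, SE 0.17), and the kinase Akt1 rose there (0.59, SE 0.13). In MLg, Stat3 had −0.39 (adjusted p = 0.0652, 0.0145 with 6 libraries per fit). Fyn, a Src family kinase, fell in MLg (−0.52, SE 0.11) and in NIH-3T3 (−0.34, SE 0.11, adjusted p = 0.0327). The NIH-3T3 call for Fyn held in 16 of 22 alternatives.

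Genes that dampen receptor signals were called in both directions. Of 21 tested, 6 were higher and 4 lower in NIH-3T3 (median 0.21), and 2 higher and 3 lower in MLg (median −0.03), where 31.4% and 22.8% of all tested genes were called in the lines. The MLg count is close to that share. Spry2, a Sprouty inhibitor of receptor signalling, fell in NIH-3T3 (−1.15, SE 0.16) and in MLg (−1.19, SE 0.16), where its means were 83.0 and 35.4 FPKM. Its relative Spry4 rose in NIH-3T3 from 3.24 to 9.80 FPKM (1.44, SE 0.15) and stood at 1.01 and 0.982 FPKM in MLg. Among the suppressors of cytokine signalling, Socs1 rose (1.68 and 1.37 in NIH-3T3 and MLg, both with SE 0.22) and Socs3 fell (−2.41 and −1.24, both with SE 0.21). Dusp1, a phosphatase of MAP kinases, fell in MLg from 65.7 to 17.7 FPKM (−1.86, SE 0.15) and had −0.33 in NIH-3T3 (adjusted p = 0.0995).

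Genes that PDGF is known to induce in fibroblasts were called in both directions. Of 24 tested genes, 6 were higher and 10 lower in NIH-3T3 (median −0.33), and 6 were higher and 5 lower in MLg (median −0.10). The lower genes include Fosl1 in both lines and Atf3 in NIH-3T3. Both passed the filter through control libraries where they are high, so their calls say nothing of the list. Among all tested genes 16.6% were higher and 14.8% lower in NIH-3T3, and 12.8% and 10.0% in MLg. The chemokines Ccl2 and Ccl7, classical PDGF-induced genes of 3T3 cells, fell in NIH-3T3, Ccl2 from a mean of 25.9 to 1.66 FPKM (−3.70, SE 0.23) and Ccl7 from 22.5 to 0.764 FPKM (−4.24, SE 0.22). In MLg they fell by 1.36 and 1.66 on the log2 scale. Fosl1, an AP-1 subunit, fell by 2.21 in NIH-3T3 and 1.75 in MLg. Fosl1 passed the filter through the control libraries, where it is high, so these values are a description. Atf3, a stress-induced factor, passed it only through NIH-3T3 control, with means of 1.40 FPKM there and 0.0956 FPKM with SHHN, so it had to differ and its fold change of −1.67 is a description. Gem, a small GTPase, rose in MLg from 10.6 to 43.2 FPKM (2.05, SE 0.22). Egr1 had a log2 fold change of 1.01 in NIH-3T3 (adjusted p = 0.0187, 0.137 with 6 libraries per fit and 0.104 with no filter, and a fold change of 0.51 without NIH-3T3 SHHN replicate 1) and of 0.53 in MLg (adjusted p = 0.243). In MLg, Egr1 stood at 29.9 to 31.2 FPKM in control and 41.5 to 47.0 FPKM with SHHN. These ranges did not overlap, as for 41.4% of all tested genes. The SE of 0.30 in MLg comes from the fit that also holds NIH-3T3 SHHN replicate 1, at 54.9 FPKM.

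**Figure D4:**
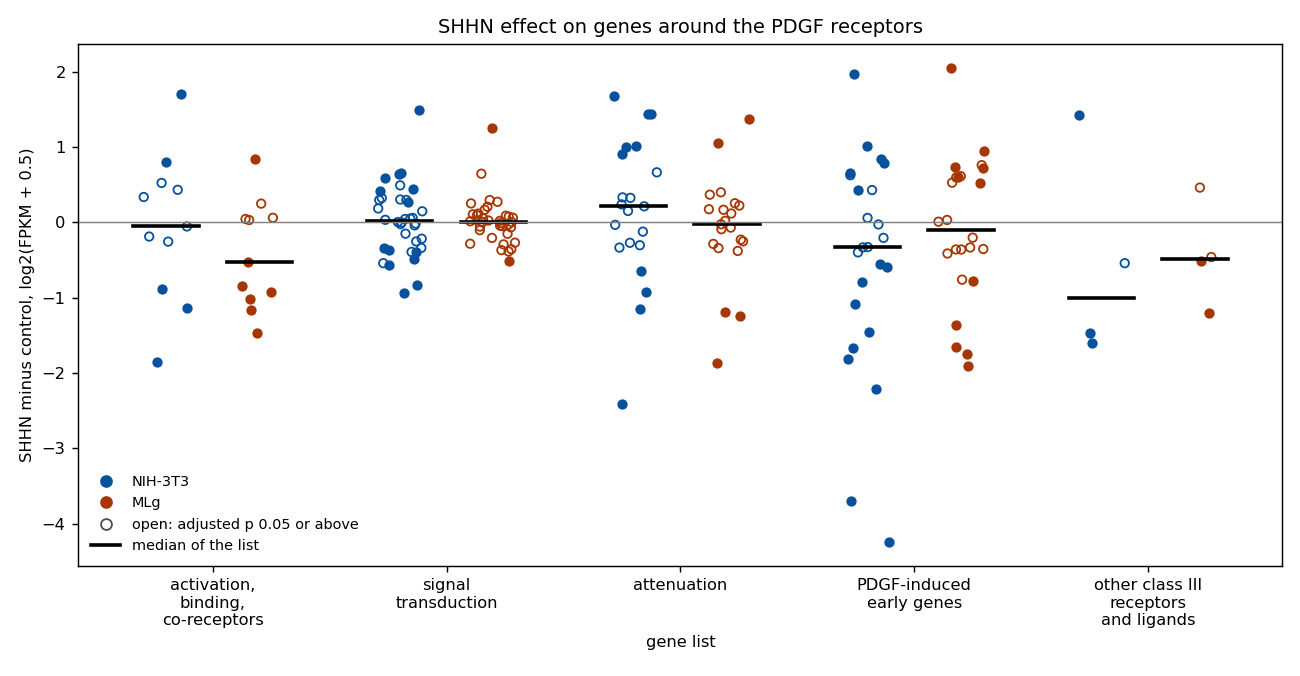
Fold change with SHHN (vertical axis, log2(FPKM + 0.5), SHHN minus control) of the tested genes of 5 lists around the PDGF receptors, blue for NIH-3T3 and brown for MLg, filled where the adjusted p is under 0.05, with a black bar at each list's median. The signal transduction list has medians of 0.02 and 0.01 with genes on both sides of 0, and the PDGF-induced genes reach from 1.97 (Egr2) down to −4.24 (Ccl7) in NIH-3T3.

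The other receptors of the same class were nearly silent, and their ligands were not. Kit, Csf1r and Flt3 averaged at most 0.156 FPKM in any group and were not tested. Of the 4 tested ligands, 1 was higher and 2 lower in NIH-3T3, and none was higher and 2 lower in MLg. Among all tested genes 16.6% were higher and 14.8% lower in NIH-3T3, and 12.8% and 10.0% in MLg. Kitl, the ligand of Kit, rose in NIH-3T3 from 21.1 to 56.5 FPKM (1.43, SE 0.34, adjusted p = 0.00516, 0.0699 with 6 libraries per fit). Csf1, a ligand of Csf1r, fell there from 89.2 to 30.0 FPKM (−1.60, SE 0.16), and Flt3l, the ligand of Flt3, fell in NIH-3T3 (−1.47, SE 0.15). Flt3l fell in MLg as well (−0.52, adjusted p = 0.0197), but the adjusted p was 0.0604 when MLg control replicate 2 was left out, and 0.0594 and 0.0984 for MLg SHHN replicates 2 and 3. Il34, a ligand of the Csf1r receptor, fell in MLg (−1.20, SE 0.21).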

How the data were processed

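RNA was sequenced from 12 libraries in 4 groups of 3. Per the submitters' processing notes, the tools were bcl2fastq, TopHat2 2.0.12 and Cufflinks 2.2.1 and the build mm10. The authors deposited 1 FPKM value per gene and library. The annotation and any scaling between libraries are not given in the sources used here. The table held 24346 genes and 1 entry without values, which was left out. Symbols were matched to GENCODE M21 for 95.7% of genes. Depth is unknown: low values were whole multiples of a gene's smallest value, with a tolerance of 0.1, in only 17.0% to 27.5% of cases per library, and no read counts were derived.

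The 12379 genes that reached 0.5 FPKM in 3 or more libraries were analysed as log2(FPKM + 0.5) in limma 3.58.1 (R 4.3.3), with 4 group means and a variance trend in 1 fit. This scale understates the change of low genes. P-values are two-sided and Benjamini-Hochberg adjusted over all tested genes. The threshold was 0.05, and each adjusted p is from limma. Receptor shares were compared by an exact permutation test. As a check of pairing, deviations from the group means were correlated across genes between control and SHHN libraries. Same-numbered libraries had 0.13, 0.16 and 0.24 in MLg and −0.00, −0.10 and 0.03 in NIH-3T3. Unlike-numbered ones reached 0.01 in MLg and 0.14 in NIH-3T3. Control libraries of different lines reached 0.45. Values of this size cannot decide whether the numbers pair the libraries. The members and gene lists were chosen with earlier results of these data known. Named genes are the 6 members, the 4 genes of each list with the smallest p in each SHHN comparison, and the 3 most alike each member. Likeness was sought among genes with a mean of at least 1 FPKM, leaving out predicted and RNA genes. Cspg4, Cdh5, Egr1, Egr2, Fos and the other marker genes were named after their values were seen. A few genes named by these rules are left out here. Alternatives were the replicate block, fits of 6 libraries, robust variances or none of the trend, pseudocounts of 0.1 and 1, quantile or median-ratio scaling, a higher filter (1 FPKM) or none, and each library left out.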

Additional observations from a re-analysis of the deposited data

Results flagged for a closer look

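By the test of the difference between the SHHN effects (NIH-3T3 minus MLg, limma, adjusted p under 0.05), none of the PDGF ligands and receptors differed between the lines, while the genes below, named around them, did. Values are log2 differences.

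Among genes that bind or activate PDGFs, the differences were 1.26 for Pdgfrl and 1.11 for Pcsk6. Pcsk6 passed the filter through MLg, where it fell (−1.16). In NIH-3T3 it averaged 0.0410 FPKM in control and 0.0204 FPKM with SHHN, far below the pseudocount, so a fall could not show there. Its difference is therefore a description. The Pdgfrl difference had an adjusted p of 0.0111, and of 0.0677 with no filter. The difference for Pcsk6 lost its call without any 1 of 11 libraries. For the kinase Akt1 it was 0.64, a call that held in 3 of 12 fits without 1 library and in 11 of 21 alternatives. Among genes that dampen receptor signals it was 1.53 for Dusp1, 1.47 for Spry4 and −1.17 for Socs3, whose adjusted p was 0.0931 with no filter and 0.0558 without NIH-3T3 SHHN replicate 2.

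Among PDGF-induced genes, the chemokines fell more in NIH-3T3, by −2.59 for Ccl7 and −2.34 for Ccl2, and the differences were −2.08 for Gem and −1.46 for Atf3, which passed the filter only through NIH-3T3 control, where it is high, so this value is a description. The ligands of the other receptors of the class differed by −2.06 for Csf1, 1.89 for Kitl and −0.96 for Flt3l. The adjusted p for Kitl was 0.111 with no filter and 0.0514 without NIH-3T3 SHHN replicate 2. Of the pathway and proliferation genes, differences were 1.04 for Gli1, 0.77 for Aurkb and 1.17 for Plk1. The Aurkb call held in 5 of 12 fits without 1 library and in 11 of 21 alternatives. Top2a, a proliferation gene named after its value was seen, differed the other way, by −1.46 (adjusted p = 0.00646).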

How the results depend on the processing

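Pdgfa, Pdgfc and Pdgfra kept direction and call for SHHN in both lines, and Pdgfb and Pdgfrb in NIH-3T3, in all 22 alternatives. Calls lost in MLg, with the log2 fold change, were those of Pdgfb with no filter (1.51), Pdgfd with a pseudocount of 0.1 (0.73) or the replicate block (0.49), and Pdgfrb with no filter or no variance trend (−0.38) or quantile normalization (−0.34). Pdgfb with SHHN between lines (−1.51) lost its call with no filter. Leaving out each library gave 1.30 to 1.67 for Pdgfb, 0.35 to 0.59 for Pdgfd and −0.49 to −0.30 for Pdgfrb in MLg, and −2.24 to −1.14 for Pdgfb between lines with SHHN. The difference between effects, never called for a PDGF gene, turned for Pdgfa with a pseudocount of 1 (−0.0093) and ranged from −0.14 to 0.21 over libraries left out, and for Pdgfb from −0.17 (without NIH-3T3 SHHN replicate 1) to 0.92. The replicate block changed no other call of a PDGF gene. In NIH-3T3, 1182 genes were lower with 6 libraries per fit, against 1826. Over libraries left out, genes lower in MLg numbered 811 (without MLg SHHN replicate 3) to 1452, and called differences 605 to 1097 higher and 451 to 1214 lower. Fits of 6 libraries give no difference between lines, and Pdgfd could not be tested with a filter of 1 FPKM. Unless the construction shows it, the cause was not tested. Depth is unknown, so levels near 0, as of Pdgfb in NIH-3T3 control and Pdgfd, carry no counting limit.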
